A study of Mus musculus with 3 samples.

Results

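The genes described here encode the proteins of the cytosolic ribosome. They were chosen by symbol alone: Rpl or Rps followed by a number, with or without a, x or l endings, together with Rplp0, Rplp1, Rplp2 and Rpsa, and without -ps symbols and the Rps6k kinases. The rule found 84 of the 31053 genes in the count table, 52 of the large subunit and 32 of the small subunit. Single-cell RNA of pancreatic islets was counted in 3 droplet libraries of the 10x Genomics 3′ kind, 1 library per group, all from male C57Bl6/J mice that were retired breeders 7 to 8 months old. In the S961 group, implanted pumps delivered S961, a peptide that blocks the insulin receptor, at a labelled 20 nM per week for 2 weeks. In the recovered group, pumps had been taken out again; the design text gives the same 20 nM per week for all treated mice and the same 2 weeks for the S961 pumps. The labels give neither the time since removal nor the number of mice behind any library. Control mice carried pumps without S961, for the same 2 weeks. The islets of all 3 groups spent a night in culture and were dispersed with TrypLE. Since a group is a single library, no replicates exist and no test between groups was possible; every interval below covers counting error only, without the spread between mice.

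A ribosome pairs a small subunit, which reads the mRNA, with a large subunit, which joins amino acids, and each subunit is a scaffold of ribosomal RNA carrying its own set of proteins. Ribosomal proteins are needed in matched amounts. Most of their mRNAs begin with a C followed by a tract of C and T, the 5′ terminal oligopyrimidine (TOP) element. Through it mTORC1 and LARP1 adjust the translation of these mRNAs to nutrients and to insulin. Beta cells devote much of their translation to proinsulin, and in several cell types a few ribosomal proteins are exchanged for paralogs.

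The start sites of the members on which the results turn are shown because the TOP element is the feature these mRNAs are known to share. Each line gives 15 bases before and 15 bases from the annotated start, read 5′ to 3′ on the strand of the gene, from RefSeq on GRCm38.p6. Capitals mark a run of at least 5 pyrimidines that opens with C within 5 bases of that start.
Rpl22l1, chr3:28805493-28805522, plus strand: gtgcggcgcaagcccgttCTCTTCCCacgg
Rps27, chr3:90213634-90213663, minus strand: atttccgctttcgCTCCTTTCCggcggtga
Rps27l, first start, chr9:66946071-66946100, plus strand: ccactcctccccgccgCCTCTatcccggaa
Rpl12, chr2:32961697-32961726, plus strand: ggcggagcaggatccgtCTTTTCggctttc
Rps2, chr17:24720048-24720077, plus strand: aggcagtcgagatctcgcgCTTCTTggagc
Rpl38, chr11:114668565-114668594, plus strand: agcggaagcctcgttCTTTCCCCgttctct
Rpl22, first start, chr4:152325711-152325740, plus strand: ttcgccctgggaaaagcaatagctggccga
Rplp0, chr5:115559452-115559481, plus strand: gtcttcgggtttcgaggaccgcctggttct
Rps4x, chrX:102189377-102189406, minus strand: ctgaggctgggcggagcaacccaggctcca
Rpl36al, chr12:69184053-69184082, minus strand: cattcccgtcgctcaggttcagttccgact
Rpl36a, chrX:134585639-134585668, plus strand: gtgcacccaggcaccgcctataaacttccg
Rpl7l1, chr17:46782642-46782671, minus strand: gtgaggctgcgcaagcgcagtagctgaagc
RefSeq gave a start for 64 of the 84 members, and 29 of them (45.3%) held such a run, against 21.2% of the 27025 genes with a start. The search covered the gene's own strand, and a start without a run says only that these letters were not in the window. Among the members shown, Rpl22l1, Rps27, Rps27l, Rpl12, Rps2 and Rpl38 carry a run, and Rpl22, Rplp0, Rps4x, Rpl36al, Rpl36a and Rpl7l1 do not.

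The libraries held 47651767 unique molecular identifiers (UMIs, each standing for 1 captured mRNA molecule) in S961, 40102058 in recovered and 38265969 in control. After filtering, 3430, 3513 and 4267 cells remained in S961, recovered and control, with median depths of 9944, 8577 and 6501 UMIs. The median share of mitochondrial UMIs in these cells was 4.24% in S961, 6.13% in recovered and 6.16% in control. The S961 library thus stood apart in mitochondrial share, while depth fell from S961 through recovered to control. Of the barcode sequences, 51 occurred in 2 libraries. Leaving out those cells, a choice made after seeing the data, left 6 members higher and 1 lower in beta-like cells of S961 against control, as with them. Cells were grouped into classes by marker genes, and no ribosomal protein gene was among the 2000 variable genes used for that. Clustering again without these genes in the table changed the beta-like class little, to 1503 cells in S961, 2042 in recovered and 2863 in control, where it otherwise held 1515, 2036 and 2854.

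Among the named classes, ribosomal protein mRNA made up the lowest share of UMIs in beta-like cells. It made up a high share in lymphocytes, ductal cells and stellate cells. In beta-like cells it was 5.59% of UMIs in S961, 5.07% in recovered and 5.15% in control. In alpha-like cells it was 9.09%, 8.80% and 9.21% in S961, recovered and control, in delta-like cells 7.03%, 6.69% and 6.97%, and in PP-like cells 6.73%, 5.68% and 6.24%. Endothelial-like cells held 8.36% in S961, 9.29% in recovered and 9.10% in control. Stellate-like cells, the collagen-making cells of the islet, held 14.7% in S961, 13.7% in recovered and 12.2% in control. The highest shares were those of B-like cells (24.1%, 59 cells) and T-like or NK-like cells (20.0%, 146 cells), both in the recovered library, where alone they reached 50 cells. Ductal-like cells held 18.2% in S961, 18.4% in recovered and 17.6% in control, but over 16, 19 and 8 cells. Macrophage-like cells (7.95%, 81 cells) and acinar-like cells (6.70%, 184 cells) reached 50 cells in S961 alone.

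**Figure D1:**
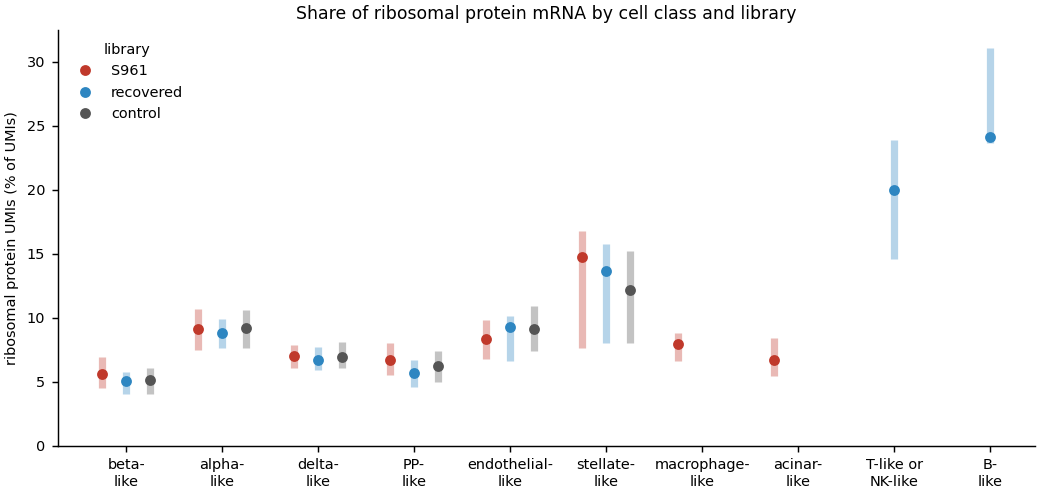
Ribosomal protein UMIs as a percentage of all UMIs (vertical axis) in each cell class (horizontal axis) and library (colour). Points are pooled shares, bars the middle 50% of cells, and classes with fewer than 50 cells in a library are left out; beta-like cells lie near 5% in all 3 libraries and B-like cells at 24.1%.

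Hormone mRNA fills much of the total in endocrine cells and so lowers the share of everything else: 42.8% of beta-like UMIs in S961, 40.0% in recovered and 40.3% in control came from islet hormone genes. With hormone and mitochondrial UMIs left out of the total, the beta-like share was 10.8% in S961, 9.77% in recovered and 9.91% in control, close to the 8.80%, 9.83% and 10.2% of endothelial-like cells. Alpha-like cells remained higher on that scale, at 13.9%, 13.7% and 14.4%, and stellate-like cells at 15.6%, 14.8% and 14.9% in S961, recovered and control. The division between subunits hardly varied: the large subunit gave 57.8%, 58.2% and 58.1% of the ribosomal protein UMIs of beta-like cells in S961, recovered and control, and 56.2%, 55.2% and 56.1% of those of stellate-like cells. Proteins of the mitochondrial ribosome, encoded by other genes, took 0.348%, 0.358% and 0.383% of beta-like UMIs in the same libraries. Barcodes above the limit of 20% mitochondrial UMIs, which were left out, carried 1.56%, 1.55% and 1.97% ribosomal protein UMIs in S961, recovered and control. With mitochondrial UMIs out of the total these shares were 4.11%, 3.32% and 3.69%, against 7.13%, 6.36% and 6.05% in kept cells.

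In beta-like cells (1515 in S961, 2036 in recovered, 2854 in control) the total share was 1.08-fold higher in S961 than in control, a log2 ratio of 0.12 (95% interval 0.11 to 0.12). It was lower in recovered than in S961, with a log2 ratio of −0.14 (0.907-fold, 0.905 to 0.909), and nearly level with control, at −0.024 (−0.027 to −0.020). Single cells overlapped widely: the middle 50% of cells lay between 4.49% and 6.94% in S961, 4.04% and 5.77% in recovered, and 4.07% and 6.03% in control. The beta-like cells fell into 3 clusters, which took up different parts of each library: the cluster with the heat shock gene Hspa1b among its leading genes held 173 of the 1515 cells in S961, 304 of 2036 in recovered and 623 of 2854 in control. Its ribosomal protein share was the highest of the 3, at 6.80%, 6.69% and 6.80% in S961, recovered and control. The log2 ratio of S961 over control was 0.20 and 0.14 in the clusters led by Prss53 and by Pdyn, but 0.00030 (−0.0079 to 0.0085) in the Hspa1b cluster; over the beta-like cells outside that cluster it was 0.18. The mitochondrial share moved with the result. In S961 the 25% of cells with the lowest mitochondrial share held 6.52% ribosomal protein UMIs and the 25% with the highest 5.68%, in recovered 5.53% and 4.44%, and in control 5.53% and 4.70%. The lowest value of S961, 5.35%, was at mitochondrial shares between these. Among cells with 4 to 7% mitochondrial UMIs, present in all 3 libraries, the log2 ratio was 0.023 for S961 over control, 0.0091 for recovered over control and −0.013 for recovered over S961. Depth moved with it in part: the 25% of beta-like cells with the fewest UMIs held 7.05% in S961, 5.42% in recovered and 6.03% in control, and the 25% with the most held 5.41%, 5.14% and 5.09%. In recovered and control the lowest values, 4.89% and 4.88%, were at depths between these. With cells of at least 5000 UMIs alone, chosen after seeing the data, the S961 over control ratio was 0.12. Alpha cell markers summed to 1502 CPM (counts scaled to 1000000 UMIs of the class) in S961 beta-like cells, 821 in recovered and 757 in control, with none of the 8 at 0. Acinar markers summed to 220, 177 and 60.8 CPM in S961, recovered and control, with 0, 0 and 1 of 9 at 0. Macrophage markers summed to 64.4, 43.6 and 38.6 CPM (0, 4 and 3 of 8 at 0), and stellate and fibroblast markers to 4.34, 0.944 and 1.61 CPM (2, 2 and 3 of 9 at 0). Other lists stood lower in S961 than in control: ductal markers at 1355, 1028 and 1628 CPM (1, 1 and 2 of 8 at 0), PP markers at 123, 111 and 179 CPM (0, 0 and 1 of 4 at 0) and delta markers at 60.0, 71.4 and 89.4 CPM (1, 0 and 0 of 6 at 0). The part of these other-cell markers in the result was not tested.

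The ratios of single members spread less than those of genes in general. Ratios were read for genes whose UMIs in the pair of libraries came to 50 or more, which held for 81 of the 84 members in beta-like cells. A gene is called higher when its CPM is at least 25% above that of the other library, a log2 ratio of 0.32, and lower when the ratio is the inverse. Between S961 and control, 6 measured members were higher and 1 was lower, against 15.1% higher and 12.5% lower among all 11590 genes measured. The median log2 ratio of the members was 0.11, and that of all genes −0.02; 63 members lay above 0 and 18 below. The middle 50% of members spanned 0.16 on the log2 scale and the middle 50% of all genes 0.38. Since low counts widen a spread, the same was taken over genes with at least 10000 UMIs over both libraries: it was 0.16 for 70 members and 0.39 for all 358 such genes. Between recovered and control no member was called in either direction, where all genes gave 11.2% higher and 4.09% lower. Between recovered and S961, 1 member was higher and 6 were lower, where all genes gave 14.3% higher and 9.45% lower. Both comparisons with control share the control library, and both with S961 share the S961 library.

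**Figure D2:**
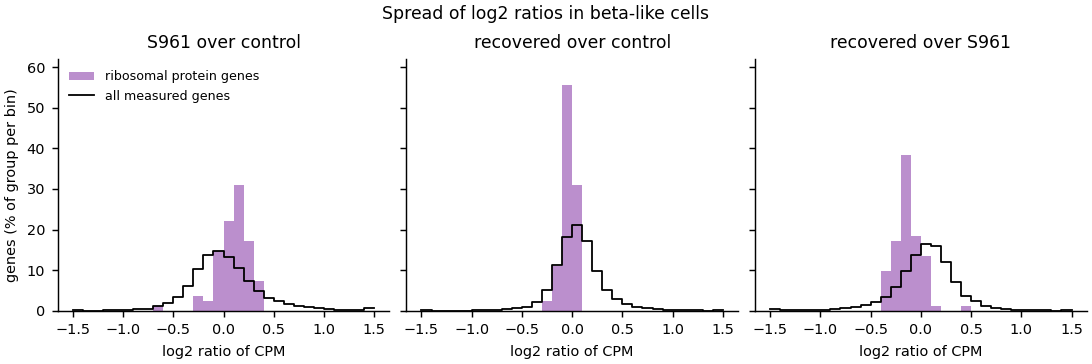
Percentage of genes (vertical axis) per bin of log2 CPM ratio (horizontal axis, bins of 0.1) in beta-like cells, for 81 measured ribosomal protein genes (bars) and all measured genes (line); ratios beyond the axis are placed in its end bins. The members form a narrower peak than all genes in each of the 3 comparisons, centred at 0.11 for S961 over control and at −0.13 for recovered over S961.

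The 6 members called higher in S961 than in control beta-like cells were Rps4x, Rps7, Rplp0, Rpl29, Rpl35 and Rpl10. Rps4x, the X-linked copy of a small subunit protein, was at 1143 CPM in S961, 903 in recovered and 869 in control, a log2 ratio of 0.40 (0.37 to 0.42) for S961 over control. Rps7, also of the small subunit, was at 822, 647 and 641 CPM in S961, recovered and control (0.36, 0.33 to 0.39). Rplp0, the base of the stalk that recruits elongation factors to the large subunit, was at 1717, 1323 and 1345 CPM (0.35, 0.33 to 0.37). In these 3 members S961 stood high and recovered lay beside control, at log2 ratios of 0.05 for Rps4x, 0.01 for Rps7 and −0.02 for Rplp0. Rpl10, which joins the large subunit at the end of its maturation, was at 1371, 1078 and 1084 CPM in S961, recovered and control (0.34, 0.31 to 0.36). Rpl29 was at 383, 316 and 300.2 CPM (0.35, 0.31 to 0.40), and Rpl35, a protein near the exit of the peptide tunnel, at 175, 141 and 138 CPM (0.34, 0.27 to 0.41). Rpl10, Rpl35 and Rpl29 are the less certain of these, because 100%, 95.2% and 92.4% of the 91-base stretches in the last 300 bases of their longest transcript occur in a transcript of another gene. Further high ratios were those of Rps3a1 (0.28), Rps14 (0.27) and Rpl5 (0.24), none of which reached the fold. All 6 calls ended with the window of 4 to 7% mitochondrial UMIs, in which no member was higher, and 1 member was still higher with at least 1000 genes and at most 10% mitochondrial UMIs per cell.

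**Figure D3:**
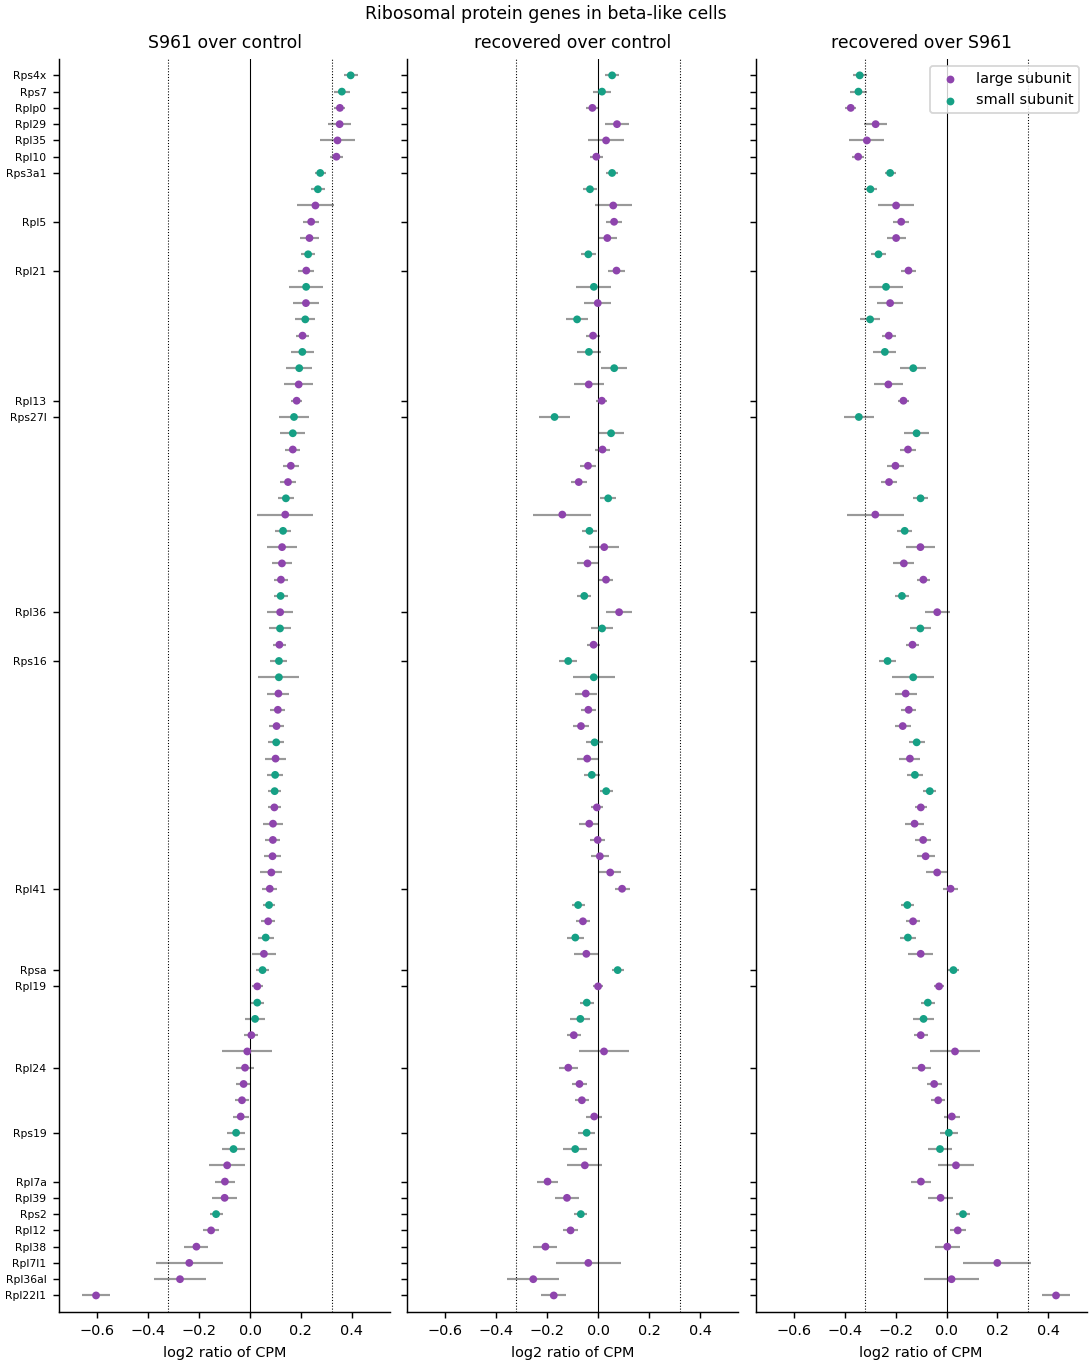
Log2 CPM ratio (horizontal axis) of 76 of the 81 measured ribosomal protein genes (vertical axis, ordered by S961 over control, with most genes named in the text labelled) in beta-like cells, with 95% counting intervals, in 3 panels for the 3 comparisons; dotted lines mark log2 ratios of 0.32 and −0.32. Rpl22l1 is the lowest member for S961 over control (−0.60) and the highest for recovered over S961 (0.43).

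Below the members' median stood a small group led by Rpl22l1. After it were Rpl36al (−0.28), Rpl7l1 (−0.24), Rpl38 (−0.21), Rpl12 (−0.15), Rps2 (−0.13), Rpl7a (−0.10), Rpl39 (−0.10) and Rps19 (−0.05), none of which reached the fold. Rpl38, a large subunit protein that in mouse embryos is known to be needed for translation of Hox mRNAs, was at 304 CPM in S961, 304 in recovered and 351 in control. S961 and recovered thus had the same level, below control. Rpl12, of the stalk base, was at 731, 754 and 813 CPM in S961, recovered and control, and Rps2, at the mRNA entry side of the small subunit, at 1058, 1107 and 1161 CPM. For both, recovered lay between S961 and control.

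Rpl22l1 is the paralog of Rpl22, a large subunit protein, and in mice Rpl22 is known to hold down the level of Rpl22l1. It lies on chromosome 3, at 28805436 to 28807424 on the plus strand in GRCm38. In beta-like cells it was at 213 CPM in S961 (4672 UMIs), 287 in recovered (6393 UMIs) and 324 in control (7270 UMIs). The log2 ratio was −0.60 (−0.66 to −0.55) for S961 over control, −0.17 (−0.22 to −0.13) for recovered over control and 0.43 (0.38 to 0.48) for recovered over S961. Of all measured genes, 2.59% had a lower ratio for S961 over control, and none of the other 80 measured members did. Rpl22 itself was at 247, 211 and 216 CPM in S961, recovered and control. Rpl22l1 therefore made up 46.4% (45.4% to 47.3%) of the UMIs of the pair in S961, 57.7% (56.8% to 58.6%) in recovered and 60.0% (59.1% to 60.9%) in control. Each beta-like cluster showed the difference by itself: the log2 ratio for S961 over control was −0.55, −0.67 and −0.53 in the clusters led by Prss53, by Pdyn and with Hspa1b, and for recovered over S961 it was 0.43 in each. Over the alternatives tried, the S961 over control ratio ran from −0.72 to −0.59.

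The lower Rpl22l1 level in S961 was not seen in every class. In alpha-like cells it was at 458, 514 and 573 CPM in S961, recovered and control, a log2 ratio of −0.32 (−0.46 to −0.18) for S961 over control. In endothelial-like cells it was at 153, 210 and 265 CPM, a ratio of −0.79 (−1.08 to −0.50), the lowest of the 81 members there. In delta-like cells it was at 399, 393 and 434 CPM (−0.12, −0.25 to 0.00), and in PP-like cells at 328, 300 and 362 CPM, which left the fold unreached in both. In stellate-like cells it was at 550, 581 and 522 CPM in S961, recovered and control, with the interval of the S961 over control ratio (−0.17 to 0.33) on both sides of 0. Some stellate-like cells held Rpl9-ps1, as described further on. Leaving them out, an alternative added after seeing the data, put Rpl22l1 at 541 CPM in S961 and 404 in control. The log2 ratio was then 0.42 (0.14 to 0.72), higher in S961. The differences between classes in this ratio were not tested. Within the pair, endothelial-like cells had the smallest Rpl22l1 share of the classes found in all libraries, at 25.6%, 30.5% and 36.6% in S961, recovered and control. Macrophage-like cells of S961 (27.3%), T-like or NK-like cells (32.5%) and B-like cells (27.0%) of recovered also lay well below the endocrine classes. Of the stretches near the 3′ end of Rpl22l1, 54.3% also occur in 1 other gene's transcripts, and those of Rpl22 in none.

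**Figure D4:**
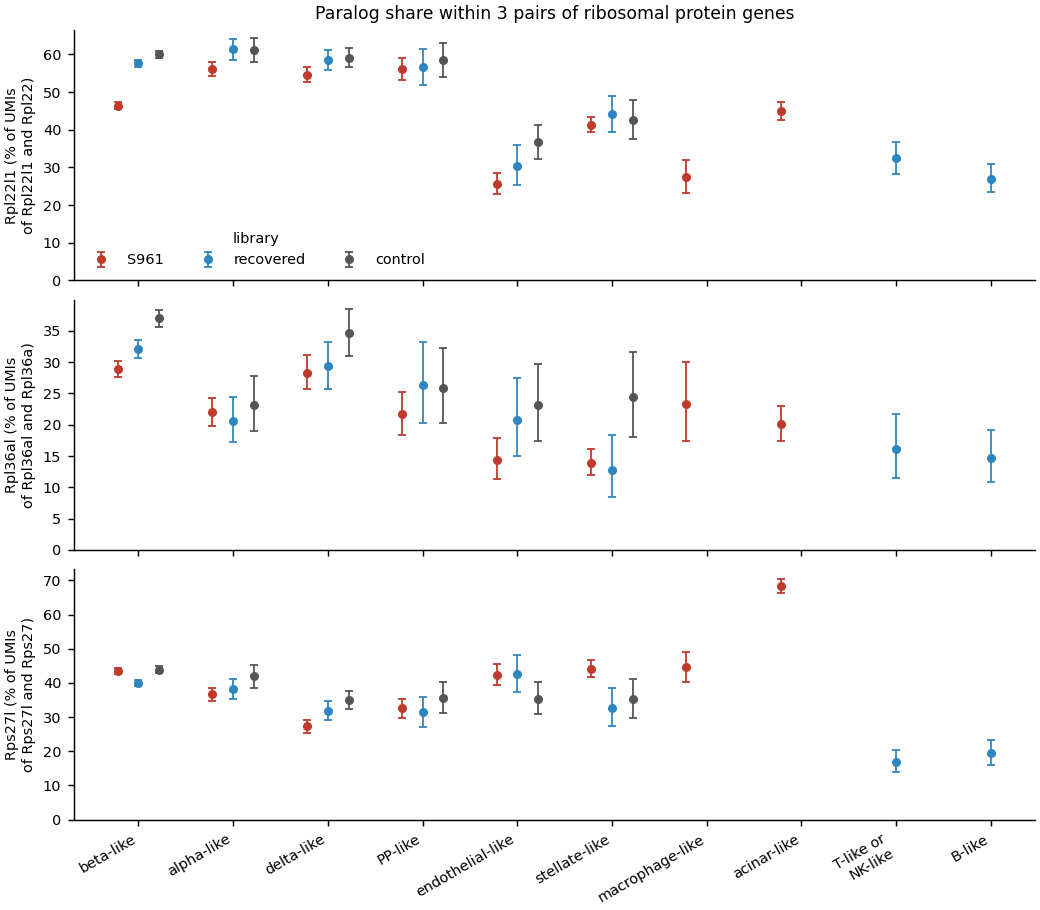
Share of a paralog in the UMIs of its pair (vertical axes, percent) by cell class (horizontal axis) and library (colour), with exact 95% intervals, for Rpl22l1 with Rpl22, Rpl36al with Rpl36a and Rps27l with Rps27. In beta-like cells the Rpl22l1 share is 46.4% in S961, 57.7% in recovered and 60.0% in control.

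Rpl36al, the paralog of the large subunit gene Rpl36a, was at 64.6 CPM in S961 beta-like cells, 65.5 in recovered and 78.2 in control. S961 and recovered were both lower than control, with log2 ratios of −0.28 (−0.38 to −0.17) for S961 and −0.26 (−0.36 to −0.15) for recovered, neither past the fold. With Rpl36a at 159, 139 and 133 CPM in S961, recovered and control, the Rpl36al share of the pair was 28.9%, 32.1% and 37.0%. In endothelial-like cells it was at 43.7, 83.7 and 71.8 CPM in S961, recovered and control (68, 37 and 45 UMIs), and in stellate-like cells at 89.0, 78.1 and 132 CPM (152, 25 and 41 UMIs). Sequence near the 3′ end is shared with other genes for 62.9% of stretches in Rpl36al and 100% in Rpl36a, so their split is uncertain.

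Rps27l is a paralog of the small subunit protein Rps27 and a known target of p53. In beta-like cells it was at 235 CPM in S961, 185 in recovered and 209 in control, and recovered was the lowest library. The log2 ratio was −0.17 for recovered over control and −0.34 for recovered over S961. Among cells with 4 to 7% mitochondrial UMIs these were −0.029 and −0.12. In delta-like cells Rps27l was at 178, 183 and 227 CPM in S961, recovered and control (S961 over control −0.35, −0.53 to −0.17). In alpha-like cells it was at 272, 280 and 342 CPM (−0.33, −0.51 to −0.15). In both of these classes control was the highest library. In endothelial-like cells it was at 290, 321 and 239 CPM, and in stellate-like cells at 423, 287 and 322 CPM in S961, recovered and control. Rps27l made up 68.4% (66.4% to 70.4%) of the pair in acinar-like cells of S961, but 16.9% in T-like or NK-like cells and 19.4% in B-like cells of recovered. The 3′ end of Rps27l shares no stretch with another gene, and that of Rps27 is shared in full. The symbol rule leaves out Rps27rt.

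Rpl7l1, a relative of Rpl7, had the fewest UMIs of the measured members, at 39.0, 44.8 and 46.0 CPM in S961, recovered and control beta-like cells. The interval of its S961 over control ratio was −0.37 to −0.11. The 3 members below 50 UMIs were those known for other tissues. Rpl3l, a heart and skeletal muscle form of Rpl3, had 4 UMIs in kept cells (2 in S961, 2 in recovered, 0 in control). Rpl39l and Rpl10l, both known from testis, had 14 and 24 UMIs in kept cells. Their levels could not be compared between libraries at this depth.

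The members with the most UMIs were Rpl13, Rpl19, Rps3a1, Rplp0 and Rpsa. Rpl13 was at 1846 CPM in S961 beta-like cells, 1642 in recovered and 1626 in control, and Rpsa, a small subunit protein also named for laminin binding, at 1273, 1297 and 1230 CPM. Rpl19 was at 1657, 1624 and 1625 CPM and Rps3a1 at 1648, 1413 and 1361 CPM in S961, recovered and control. None of these 4 reached the fold in any comparison of beta-like cells.

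Recovered beta-like cells resembled control in every measured member to within the fold. The highest ratios of recovered over control were those of Rpl41 (0.09), the smallest ribosomal protein, Rpsa (0.08), Rpl36 (0.08), Rpl21 (0.07) and Rpl29 (0.07). The lowest were Rpl36al (−0.26), Rpl38 (−0.21), Rpl7a (−0.20), Rpl22l1 (−0.17), Rps27l (−0.17), Rps16 (−0.12), Rpl24 (−0.12), Rpl39 (−0.12) and Rpl12 (−0.11). Against S961, recovered was higher by the fold in Rpl22l1 alone and lower in Rplp0 (−0.38), Rpl10 (−0.35), Rps7 (−0.35), Rps4x (−0.34) and Rps27l (−0.34), among the 6 called lower. Of the 6, 4 are members that were higher in S961 than in control, measured against the same S961 library.

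Among the other endocrine classes few members reached the fold, except in PP-like cells for recovered against S961. Beta cell RNA in these classes differed between libraries: the 10 beta cell markers summed to 9963, 23979 and 47068 CPM in alpha-like cells of S961, recovered and control, to 60852, 148161 and 151127 CPM in delta-like cells, and to 77178, 133528 and 111761 CPM in PP-like cells. Their part in the member ratios was not tested. With an estimate of this RNA taken off, the log2 ratio of the total share for S961 over control was −0.085 in alpha-like, −0.10 in delta-like and 0.077 in PP-like cells, against −0.018, 0.013 and 0.11 without that step. In alpha-like cells of S961 against control, 0 were higher and 2 lower (all genes 21.4% and 10.1%), namely Rpl22l1 and Rps27l. In delta-like cells 0 were higher and 1, Rps27l, was lower (all genes 24.2% and 9.29%). Rps7 (0.19), Rpl10 (0.16) and Rps4x (0.13), called higher in beta-like cells, were among the 5 named as highest in delta-like cells. The 5 named in alpha-like cells were Rplp1, Rplp0, Rps2, Rps12 and Rpsa, of which only Rplp0 was called higher in beta-like cells. In PP-like cells no member was called in either direction (all genes 17.6% and 14.2%). Recovered against control gave 0 higher and 0 lower in alpha-like cells (all genes 17.2% and 11.8%) and in delta-like cells (14.1% and 10.2%), and 0 higher and 1 lower in PP-like cells (14.1% and 16.4%). Recovered against S961 gave no call in alpha-like cells (all genes 12.1% and 16.4%) or delta-like cells (9.38% and 19.8%). In PP-like cells 16 of 81 members were lower in that comparison, a share near the 20% of all genes, and 0 were higher (all genes 13.6%). Of the 81 members, 79 lay below 0, with a median of −0.24.

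In endothelial-like cells most members were lower in S961 than in control: 68 of 81 lay below 0, with a median of −0.11, but only 3 passed the fold downwards and 0 upwards (all genes 11.6% and 25.7%). The 3 were Rpl22l1, Rpl36al and Rpl12, the last at 1044 CPM in S961, 1258 in recovered and 1402 in control. Rps27a, made as a fusion with ubiquitin, was at 1541, 1688 and 1882 CPM in the same libraries. Recovered against control gave 3 higher and 3 lower (all genes 23.1% and 11.9%), and recovered against S961 gave 4 higher and 1 lower (16.2% and 18.6%). Islet hormone genes took 1.53% of endothelial-like UMIs in S961, 2.02% in recovered and 6.99% in control.

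Stellate-like cells showed the most calls over all comparisons together, and all genes were also called most often there. Of 81 members, 35 were higher and 1 lower in S961 than in control, where all genes gave 41.3% and 14.4%. Recovered against control gave 22 higher and 2 lower (all genes 32.7% and 17.7%), and recovered against S961 0 higher and 13 lower (18.7% and 35.5%). With all stellate-like cells kept, the share of members called was near that of all genes for higher calls in S961 over control, and below it otherwise. Rps2 was at 4574 CPM in S961, 4032 in recovered and 2650 in control (S961 over control 0.79, 0.68 to 0.89), and Rpl38 at 609 CPM in S961 and 351 in control (0.79, 0.51 to 1.09). Rpl41, Rpl10a and Rpl4 followed at 0.63, 0.61 and 0.61. Islet hormone genes took 1.70% of stellate-like UMIs in S961, 3.58% in recovered and 13.1% in control. Without hormone and mitochondrial UMIs in the total, the log2 ratio of the total share was 0.07 for S961 over control, where it was 0.27 over all UMIs, and −0.0041 for recovered over control, where it was 0.16. With an estimate of beta-like RNA taken off (3.79% of UMIs in S961, 8.53% in recovered and 32.7% in control), both turned negative, to −0.043 for S961 over control and −0.11 for recovered over control. Rpl9-ps1, which leads a cluster described further on, had a UMI in 4.93% of stellate-like cells in S961, 8.77% in recovered and 8.91% in control, against at most 1.40% in any library of the beta-, alpha-, delta-, PP- or endothelial-like cells. Leaving those cells out, an alternative added after seeing the data, gave 56 members higher and 1 lower for S961 over control (all genes 42.5% and 14.8%), and Rps2 at 0.70. Beyond that, their part in the member ratios was not tested.

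The make-up of the ribosomal protein UMIs was compared between classes within each library, as the log2 share of a member relative to its mean share over the classes with at least 50 cells. For each of the 81 members ranked, the range over classes was taken in each library and the lowest of the 3 kept. The median of these ranges was 0.41, the narrowest 0.16 and the widest 1.73, and 2 members, Rpl7l1 and Rpl22l1, ranged over at least 1 log2 unit in all 3 libraries. Among the 10 widest were Rpl7l1, Rpl22l1, Rpl36al, Rps2, Rpl41, Rpl38, Rplp1, Rpl13a and Rps27l, which include 4 of the paralogs. Rpl7l1 stood highest in endothelial-like cells in each library, at 1.04 in S961, 0.92 in recovered and 1.01 in control. Its level was 168, 133 and 171 CPM there in S961, recovered and control, from 261, 59 and 107 UMIs. Rpl22l1 was low in endothelial-like cells, at −1.09, −0.91 and −0.86 in S961, recovered and control. Rps2 was high in endothelial-like cells, at 0.53, 0.54 and 0.59, and Rpl41 was highest in beta-like cells, at 0.53, 0.71 and 0.51. Rpl38 was also highest in beta-like cells of each library. Rplp1, an acidic stalk protein, was lowest in delta-like cells of each library, at −0.45, −0.42 and −0.35 in S961, recovered and control. Rpl36al was highest in delta-like cells of each library.

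**Figure D5:**
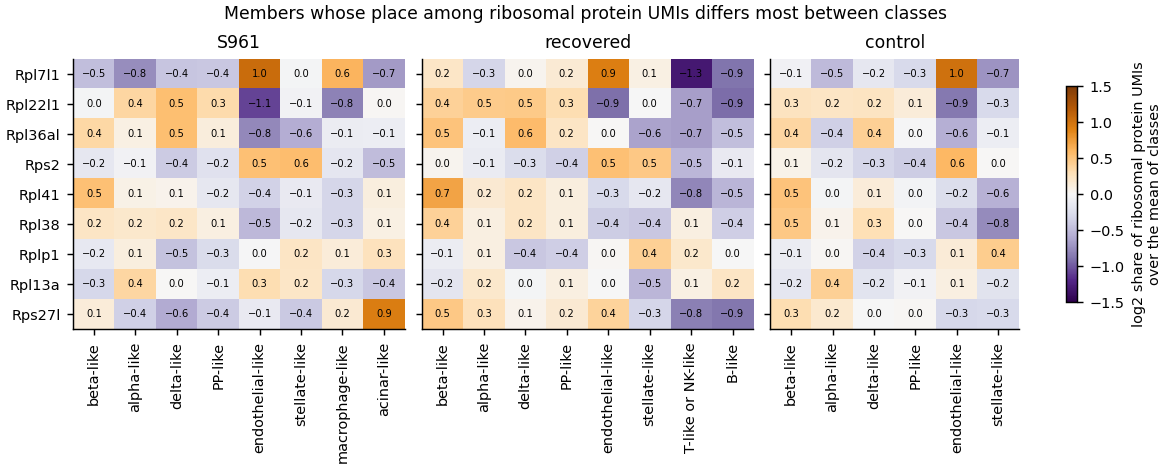
Log2 share of each member among the ribosomal protein UMIs of a class, relative to the mean over classes (colour and printed value), for 9 of the 10 members with the widest range (rows), cell classes with at least 50 cells (columns) and the 3 libraries (panels). Endothelial-like cells show high Rpl7l1 and low Rpl22l1 in all 3 panels.

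Other genes of translation did not share a common direction in beta-like cells of S961 against control, where all genes gave 15.1% higher and 12.5% lower. Of 77 measured mitochondrial ribosomal protein genes, 1 (1.30%) was higher and 11 (14.3%) were lower, with the share of lower calls near that of all genes and a median log2 ratio of −0.10, on the other side of 0 from the cytosolic members. Mrps12 was at 115 CPM in S961, 142 in recovered and 171 in control, and Mrps14 at 113, 128 and 156 CPM. Of 39 initiation factors 0 were higher and 5 (12.8%) lower, again near the share of all genes: Eif4e, the cap-binding protein, was at 71.7, 85.6 and 98.3 CPM and its partner helicase Eif4a1 at 242, 277 and 315 CPM in S961, recovered and control, and the others were Eif3b, Eif2s3x and Eif1b. Of 40 ribosome biogenesis genes 2 (5%) were higher and 3 (7.5%) lower, both below the shares of all genes. Npm1, a nucleolar chaperone, was at 315, 239 and 247 CPM, and Sbds, which helps release the large subunit, at 62.1, 54.5 and 47.8 CPM; Tsr1, Nip7 and Fbl were the lower ones.

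Elongation factors and other mRNAs known for TOP elements gave 2 higher (13.3%, near the 15.1% of all genes) and 0 lower of 15 measured, with a median of 0.11, the same as the ribosomal proteins. Eef1a1, which brings aminoacyl-tRNA to the ribosome, was at 2281 CPM in S961, 2047 in recovered and 1950 in control (0.23, 0.21 to 0.24), and Eef2, the translocase, at 639, 594 and 517 CPM (0.31, 0.27 to 0.34), neither past the fold. The 2 called were Npm1 and Vim, an intermediate filament gene of connective tissue cells, at 2.33 CPM in S961, 0.629 in recovered and 0.803 in control. Tpt1 stood at −0.07. Rack1 (0.10) and Fau (0.09), parts of the small subunit outside the symbol rule, stood near the members' median. Of 23 measured genes of mTORC1 and TOP mRNA control, 1 (4.35%) was higher (Myc, at 3.61 CPM in S961 and 2.72 in control, with an interval of −0.09 to 0.91) and 0 were lower; Larp1 was at 75.1, 69.1 and 63.0 CPM. Of the 10 stress and dissociation genes, 3 were higher (Jun, Egr1, Fos) and 3 lower (Ddit3, Hspa1b, Dnajb1) in S961 than in control, 30% each way; these genes are known to respond to tissue digestion and culture.

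A pair of clusters kept outside all classes had -ps symbols among their leading genes, and in them the ribosomal protein profile was distorted in the same way in all 3 libraries. Together they made up 308 cells in S961, 372 in recovered and 311 in control, with mitochondrial shares of 1.95%, 2.02% and 1.96%. Ribosomal protein UMIs made up 4.56%, 3.93% and 4.12% of UMIs in the cluster with beta cell markers in S961, recovered and control, and 9.41%, 8.83% and 9.21% in the cluster with alpha cell markers. The ratios below are of a member's share among the ribosomal protein UMIs. In the cluster with beta cell markers, set against beta-like cells of the same library, Rpl29 stood at log2 ratios of −4.76, −4.10 and −4.28 in S961, recovered and control, and Rpl38 at −3.34, −3.41 and −2.20. Rpl21 (−2.63, −2.51, −2.07) and Rps2 (−2.38, −2.72, −2.49) were also far lower, while Rpl22l1 (1.27, 0.84, 0.88) and Rps26 (1.24, 1.06, 1.08) were higher. The cluster with alpha cell markers, set against alpha-like cells, had Rpl29 at −4.22, −3.71 and −4.05 and Rps2 at −2.88, −2.79 and −2.58. In the beta-marker cluster Rpl9-ps6 was at 494 CPM in S961, 394 in recovered and 396 in control, against 52.6, 46.4 and 45.5 CPM in beta-like cells. Rpl9-ps1 was at 96.8, 78.5 and 79.5 CPM there and at 0.137, 0.180 and 0.179 CPM in beta-like cells. Despite their -ps symbols, GENCODE M21 lists both Rpl9-ps6 and Rpl9-ps1 as protein coding. Counts on the 9 ribosomal -ps symbols equalled 2.13%, 1.99% and 1.98% of the members' UMIs in these clusters and 0.338%, 0.301% and 0.298% in beta-like cells. What these cells are was not tested.

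Copies elsewhere in the genome limit how far single members can be told apart. Of the 84 members, 27 shared at least 50% of the 91-base stretches of their last 300 bases with a transcript of another gene in GENCODE M21, and 40 shared none. Among the measured members, the median level in control beta-like cells was 484 CPM for the 27 that shared at least 50% and 685 CPM for the 37 that shared none. The median log2 ratio of S961 over control was 0.10 in both, and 0.12 in the 17 between.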

How the data were processed

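The deposited values are counts: whole numbers of UMIs per gene and barcode, which the authors made with Cell Ranger on mm10, per the submitters' processing notes; the version is not given in the sources used here. Barcodes were assigned to libraries by the suffix in the labels. Cells needed 500 genes or more and a mitochondrial share of 20% or less. Scrublet (expected rate 0.06) called 77, 24 and 3 doublets in S961, recovered and control; at 0.0703% it hardly worked in control. Cells were scaled to 10000, log-transformed, reduced to 2000 variable genes and 30 components and clustered (scanpy 1.11.5, leidenalg 0.10.2, 15 neighbours, resolution 0.5) into 17 clusters, named from marker lists; free hormone RNA was left in. UMIs were summed per class and library and given as CPM. Ratios carry exact conditional binomial and shares exact Clopper-Pearson 95% intervals (scipy 1.17.1). Depth ranged from 38265969 to 47651767 UMIs per library. The ratio step was tested on simulated data. Named members were the 10 highest and 10 lowest ratios in beta-like cells and 5 each way elsewhere, ranked by the interval bound nearest the members' median among those with at least 100 UMIs, the 10 widest ranges across classes, the 5 most abundant members, the paralogs and those under 50 UMIs. The members, lists and rules were chosen with earlier results of these data known. Alternatives are given in the closing section. Some genes of these lists are not reported here.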

Additional observations from a re-analysis of the deposited data

Results flagged for a closer look

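The total ribosomal protein share moved in opposite directions in different cell classes between the same 2 libraries. For S961 over control the log2 ratio was 0.12 in beta-like cells and 0.11 in PP-like cells, but −0.018 in alpha-like cells and −0.12 in endothelial-like cells. For recovered over S961 it was −0.14 in beta-like, −0.047 in alpha-like, −0.25 in PP-like and −0.11 in stellate-like cells, but 0.15 in endothelial-like cells. In pooled UMIs these directions stayed the same without mitochondrial UMIs in the total and without mitochondrial and hormone UMIs. By the median of single cells, recovered against S961 went the other way in endothelial-like cells (7.70% against 7.91%). The same was so in stellate-like cells (12.6% against 12.1%). The other directions given here held in the medians. The differences between classes were not tested, since each rests on 1 library per group.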

How the results depend on the processing

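No paired analysis was possible because each group has 1 library. In beta-like cells the log2 ratio of the total share for S961 over control (0.12) was 0.082 without mitochondrial UMIs in the total. It was 0.12 without mitochondrial or hormone UMIs, 0.074 under a stricter cell filter and 0.023 in cells with 4 to 7% mitochondrial UMIs. It was 0.12 with doublets kept, 0.13 without the deepest 5% of cells, 0.19 as a mean over cells and 0.15 after thinning to 2000 UMIs. It was 0.18 without the Hspa1b cluster and 0.12 in cells of at least 5000 UMIs. In the same order without the hormone setting, recovered over S961 (−0.14) was −0.10, −0.071, −0.013, −0.15, −0.16, −0.23, −0.20, −0.16 and −0.13. Recovered over control (−0.024) changed sign under the stricter filter (0.0032), in the 4 to 7% window (0.0091) and without the Hspa1b cluster (0.021). It was −0.017 without mitochondrial UMIs, −0.031 without the deepest cells and −0.044 as a mean over cells. After thinning it was −0.048, and in cells of at least 5000 UMIs −0.0052. Members higher in S961 than in control (6 of 81, all genes 15.1%) numbered 2 without mitochondrial UMIs (all genes 13.1%) and 1 under the stricter filter (16.4%). They numbered 0 in the window (19.4%), at 1.5-fold and scaled to ribosomal protein UMIs (9.91%). There were 10 as a mean over cells (12.5%) and 11 without the Hspa1b cluster (15.5%), neither above the share of all genes. Members lower (1, all genes 12.5%) numbered 2 under the stricter filter (11.4%), after thinning (24.3%) and without that cluster (13.3%). They numbered 3 in the window (12.1%) and 4 scaled to ribosomal protein UMIs (23.8%). Recovered over control (0 and 0) gave 2 higher with no minimum of UMIs and 1 lower after thinning (all genes 7.53%). Recovered over S961 (1 higher, 6 lower) gave 2 higher in the window and scaled to ribosomal protein UMIs, 3 with no minimum and 0 at 1.5-fold. It gave 1 lower without mitochondrial UMIs, and 0 under the stricter filter, in the window, at 1.5-fold and scaled to ribosomal protein UMIs. Lower members numbered 17 as a mean over cells (all genes 8.88%), 16 after thinning (8.83%) and 12 with the median of all genes set to 0 (12.6%). In each of these last settings the members were lower more often than all genes. Fewer cells entered the window (597 in S961, 806 in recovered, 1248 in control), and the cause of the other shifts was not tested. Leaving mitochondrial and hormone UMIs out of the total, or taking off an estimate of beta-like RNA, reversed delta-like cells for S961 over control (−0.081 and −0.10) and recovered over S961 (0.026 and 0.037), endothelial-like cells for recovered over control (−0.056 and −0.055), and stellate-like cells for recovered over control (−0.0041 and −0.11) and, by the second only, S961 over control (−0.043). The count limits here are UMIs per class: under 50 UMIs no ratio was read.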
